A study of Mus musculus with 12 samples.

Results

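The genes described here are 9 genes of cyclic AMP signalling: the transcription factor genes Crem and Creb1, the adenylyl cyclase gene Adcy7, and the phosphodiesterase genes Pde2a, Pde3b, Pde4a, Pde4b, Pde4d and Pde7a. They were chosen by name from the 23479 gene symbols of the count tables, with results of these libraries already known, and all 9 were found and passed the filter on low counts. RNA was sequenced from CD4+ T cells of mouse spleen on a C57BL/6 background, either wild-type C57BL/6J (WT) or Sirt2-/- (KO), deficient in the NAD-dependent deacetylase SIRT2. Cells were taken directly after negative enrichment, to a purity above 95% by flow cytometry, without stimulation (0 h), or were kept for 24 h on plate-bound anti-CD3 antibody 145-2C11 at 5 µg/ml, which engages the T cell receptor complex; no costimulatory antibody is named in the labels. The cells at 0 h are called resting and those at 24 h stimulated, which makes 4 groups of 3 libraries. All 12 were made from 100 ng of total RNA after probe-based reduction of ribosomal RNA. Resting and stimulated are names of the groups only, and a change on stimulation means 24 h against 0 h. No group was kept for 24 h without anti-CD3. Effects of the antibody, of culture and of time since isolation therefore cannot be told apart. The labels give neither the age and sex of the mice nor the Sirt2 allele, and leave unsaid whether each library had its own mouse. The p-values therefore rest on library-to-library spread alone, part or all of which may be technical.

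Cyclic AMP is made from ATP by adenylyl cyclases, which are switched on by receptors coupled to the stimulatory G protein, and is broken down by phosphodiesterases. Through protein kinase A it leads to phosphorylation of CREB and its relative CREM, which bind cyclic AMP response elements in promoters. In T cells a rise in cyclic AMP dampens signalling from the T cell receptor, and phosphodiesterases brought to the receptor limit that brake. The gene Crem also encodes ICER, a short repressor made from an internal promoter, and the counts per gene do not separate it from the longer CREM forms.

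The response element is the palindrome TGACGTCA, and its half-site is TGACG, which reads CGTCA on the other strand. RefSeq promoter windows of 300 bases (GRCm38.p6, from 250 bases before a start to 50 after) were at hand for 6 of the 9 genes, with 17 windows in all. Crem, Pde3b and Pde7a had no window, so their promoters, with the internal promoter of Crem, were not searched. Searched on both strands, 0 of the 17 held the palindrome, against 1.79% of all 32851 windows, and 4 of the 17 held the half-site, against 20.8%; every palindrome also counts as a half-site. The 4 matches are shown because they are the stretches of these promoters that carry the letters read by CREB and CREM. The half-site is in capitals, all 4 stretches are on the plus strand, and a match is a description of letters, not evidence of binding.
Adcy7, chr8:88282939-88282993: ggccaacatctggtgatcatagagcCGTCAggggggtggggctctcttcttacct
Pde2a, chr7:101450509-101450563: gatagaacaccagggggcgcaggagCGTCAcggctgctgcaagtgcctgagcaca
Pde4a, chr9:21184026-21184080: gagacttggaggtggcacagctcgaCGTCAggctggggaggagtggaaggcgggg
Pde4b, chr4:102421496-102421550: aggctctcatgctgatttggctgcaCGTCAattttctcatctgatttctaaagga
Each lies at 1 of several annotated starts of its gene. Counted from the annotated start as 0, the match began at -28 in Adcy7, 14 in Pde2a, -50 in Pde4a and -34 in Pde4b.

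Library depth in reads assigned to genes was 3.63 to 10.0 megareads, with the lowest counts in stimulated KO. Levels are given as counts-per-million values (CPM), with library sizes scaled by TMM factors; adjusted p-values are those of Benjamini and Hochberg across the whole table, with a threshold of 0.05. Sirt2 was at 67.9 to 85.4 CPM in resting WT and 9.04 to 16.2 CPM in resting KO, and at 62.3 to 76.3 CPM in stimulated WT and 9.52 to 19.7 CPM in stimulated KO, so every library matched its genotype label. Cd4 was at 1557 to 1843 CPM in the resting and 495 to 681 CPM in the stimulated libraries. The 8 CD4 T cell markers summed to 6189 to 7272 CPM at 0 h and 2924 to 3311 CPM at 24 h, and the share of the ribosomal precursor Rn45s was 12.5% to 17.5% at 0 h and 7.95% to 9.55% at 24 h. The part of these shifts, and of those in the markers that follow, in the changes over time below was not tested. Of the markers of other cells, the 2 of CD8 T cells summed to 30.8 to 35.8 CPM in resting KO against 17.3 to 18.5 CPM in resting WT, nearly all of it Cd8b1; Cd8a overlapped, at 0.484 to 2.26 CPM against 0.346 to 1.00 CPM, and was too low to be tested. The 6 of NK cells summed to 63.3 to 68.4 CPM in resting KO and 57.3 to 60.5 CPM in resting WT, and to 12.7 to 17.2 CPM in the stimulated libraries. The 8 of B cells summed to 65.3 to 89.4 CPM in resting KO and 71.0 to 88.9 CPM in resting WT, most of it Cd74, while Cd22 was lower in resting KO, at 1.18 to 1.45 CPM against 5.40 to 10.8 CPM. Monocyte, neutrophil, dendritic and erythroid markers summed to at most 8.04 CPM in any library, and 6 of 8 erythroid and platelet markers were at 0. Pecam1, which made up nearly all of the endothelial list and is also found on T cells, was at 209 to 217 CPM in stimulated KO and 159 to 174 CPM in stimulated WT.

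Crem rose in both genotypes on stimulation, to a lower level in KO than in WT cells, and in WT it had the largest change of the 9 genes. Its level was 13.2, 8.59 and 12.8 CPM in the 3 resting WT libraries and 14.5, 15.5 and 9.98 CPM in resting KO. After 24 h it was 56.1, 43.6 and 52.0 CPM in WT and 28.4, 34.9 and 28.4 CPM in KO. The genotypes overlapped at 0 h, while at 24 h each KO library lay below each WT library and above every 0 h library. Crem rose from 11.5 ± 2.53 to 50.6 ± 6.34 CPM in WT (SD, n = 3, log2 2.13, SE 0.179, edgeR quasi-likelihood, adjusted p = 8.85e-14). In KO it rose from 13.3 ± 2.93 to 30.6 ± 3.80 CPM (SD, n = 3, log2 1.19, SE 0.183, edgeR quasi-likelihood, adjusted p = 6.58e-07). The interaction of genotype and time, which asks whether the rise differed between the genotypes, was -0.95 on the log2 scale (SE 0.256) and did not pass (edgeR quasi-likelihood, adjusted p = 0.478), so the smaller fitted rise in KO is not a called difference.

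Between genotypes, the Crem level in KO at 24 h was 60.4% of WT (log2 -0.72, SE 0.167, 95% interval of the fit -1.05 to -0.38). This difference was known when the genes were chosen and is given as a description. In refits that left out 1 of the 6 libraries of the comparison it ranged from -0.83 to -0.64, and in 0 of the 6 was Crem past the threshold. At 0 h the difference was log2 0.23 (95% interval -0.16 to 0.62, edgeR quasi-likelihood, adjusted p = 0.837). Crem has 26 annotated starts in the GENCODE mouse annotation, and 472 bases of its exons overlap Gm6225 on the other strand, which had at most 2.15 CPM in any library.

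Creb1, which encodes the constitutive activator CREB, was abundant and moved the other way. It was at 132, 139 and 136 CPM in resting WT and 140.1, 134 and 139.5 CPM in resting KO, and at 99.1, 98.7 and 94.6 CPM in stimulated WT and 113, 107 and 97.3 CPM in stimulated KO. Every 24 h library lay below every 0 h library, and the genotypes overlapped at both times. Creb1 fell in WT (log2 -0.48, SE 0.0911, edgeR quasi-likelihood, adjusted p = 2.52e-05) and in KO (log2 -0.38, SE 0.0921, edgeR quasi-likelihood, adjusted p = 0.000731). KO against WT gave log2 0.02 at 0 h (95% interval -0.16 to 0.20) and 0.12 at 24 h (-0.07 to 0.31), with adjusted p of 0.983 and 0.881 (edgeR quasi-likelihood).

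Adcy7 encodes a membrane adenylyl cyclase of blood cells. Its level was 112, 101 and 118 CPM in resting WT and 124, 115 and 126 CPM in resting KO. At 24 h it was 53.4, 58.8 and 49.1 CPM in WT and 62.2, 62.0 and 58.7 CPM in KO. The 6 stimulated libraries all lay well below the 6 unstimulated ones, and the genotypes overlapped at both times. It fell to 48.7% of the 0 h level in WT (log2 -1.04, SE 0.103, edgeR quasi-likelihood, adjusted p = 1.4e-11) and to 50.3% in KO (log2 -0.99, SE 0.104, edgeR quasi-likelihood, adjusted p = 7.12e-11). KO against WT was log2 0.14 at 0 h (95% interval -0.06 to 0.33, edgeR quasi-likelihood, adjusted p = 0.798) and 0.18 at 24 h (-0.04 to 0.40, edgeR quasi-likelihood, adjusted p = 0.799).

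**Figure D1:**
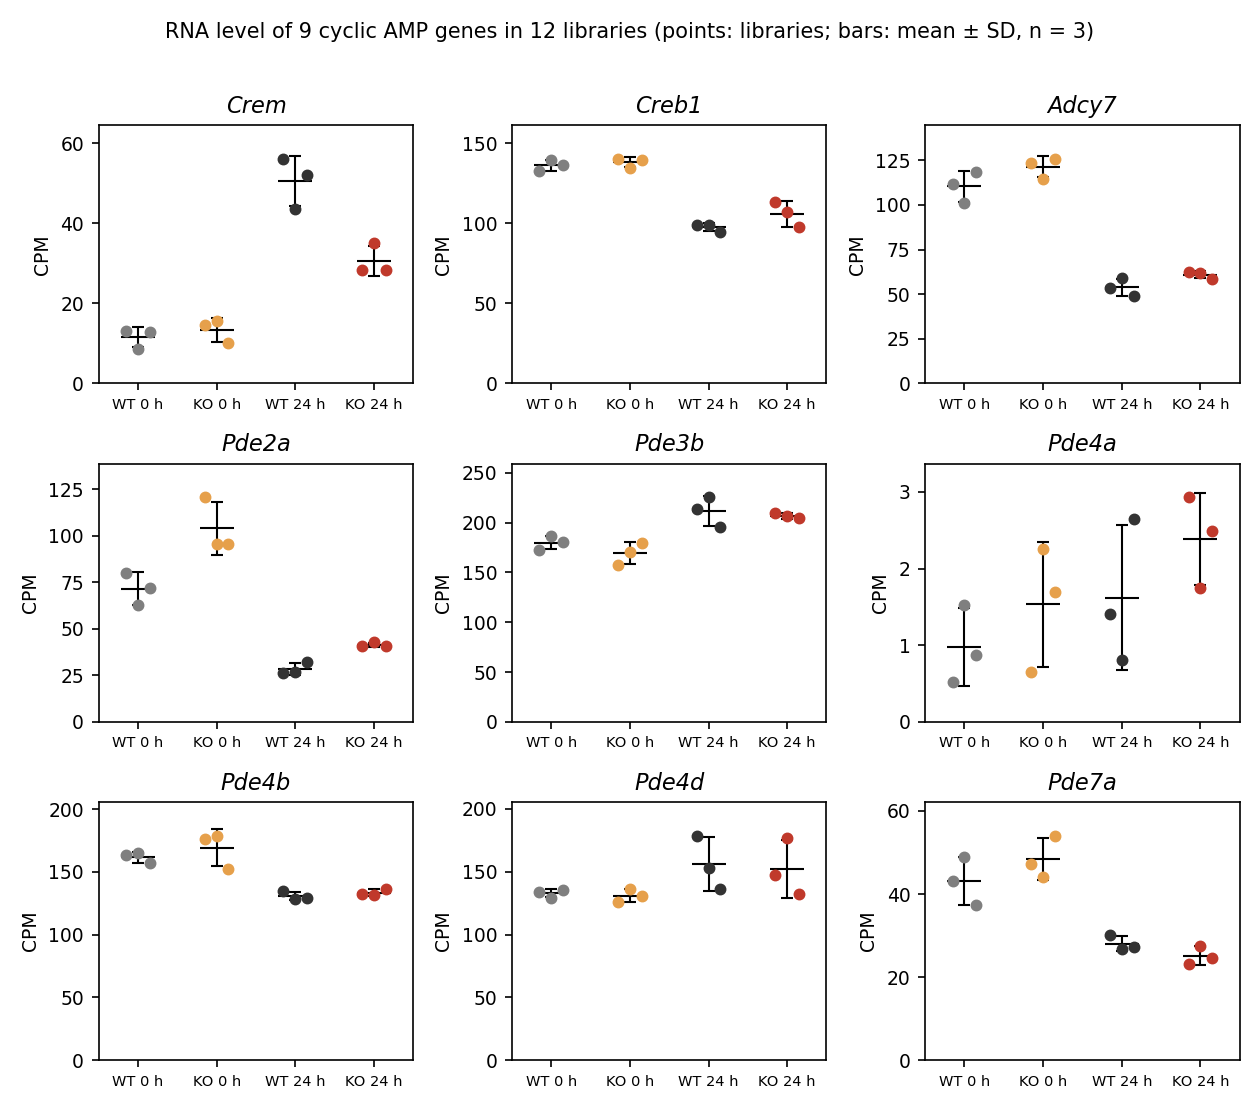
RNA level in CPM (linear axis from 0, 1 panel per gene) of the 9 genes in WT and KO cells at 0 h and 24 h; points are libraries and bars the mean ± SD of 3. Crem is higher and Creb1, Adcy7, Pde2a, Pde4b and Pde7a are lower in every 24 h library than in every 0 h library of the same genotype, and the KO libraries of Pde2a lie above the WT libraries at both times.

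Pde2a, a phosphodiesterase that cyclic GMP stimulates to break down cyclic AMP, was the gene of this set with the largest fall on stimulation, and its level was higher in each KO library than in each WT library of the same time. Its level was 80.0, 62.6 and 72.1 CPM in resting WT and 120.5, 95.5 and 95.6 CPM in resting KO. At 24 h it was 26.1, 26.6 and 32.1 CPM in WT and 40.6, 42.6 and 40.8 CPM in KO. No KO library overlapped a WT library at either time. Pde2a fell to 39.5% of the 0 h level in WT (log2 -1.33, SE 0.126, edgeR quasi-likelihood, adjusted p = 3.06e-12) and to 39.8% in KO (log2 -1.33, SE 0.123, edgeR quasi-likelihood, adjusted p = 1.73e-12).

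The level of Pde2a in KO was 145% of WT at 0 h (log2 0.55, SE 0.116, 95% interval 0.31 to 0.78), a difference that was known when the genes were chosen and is given as a description. At 24 h it was 146% of WT (log2 0.55, SE 0.133, 95% interval 0.28 to 0.81), which missed the threshold (edgeR quasi-likelihood, adjusted p = 0.055). The labels leave unsaid whether the 24 h libraries came from other mice than those at 0 h. Pde2a was also chosen with results of these libraries known, so its 24 h values are no separate support. The interaction was log2 0.00078 (95% interval -0.29 to 0.29). The 24 h difference passed with DESeq2 (adjusted p = 0.0407), with RLE factors (edgeR quasi-likelihood, adjusted p = 0.0475), with upper-quartile factors (edgeR quasi-likelihood, adjusted p = 0.0344), with no filter on low counts (edgeR quasi-likelihood, adjusted p = 0.0145), with a minimum count of 30 (edgeR quasi-likelihood, adjusted p = 0.0434) and without stimulated WT replicate 3 (edgeR quasi-likelihood, adjusted p = 0.0368). With only the groups compared or with Rn45s left out the 24 h difference did not pass (edgeR quasi-likelihood, adjusted p = 0.0561 and 0.0541). Nor did it pass with the replicate number as a block (edgeR quasi-likelihood, adjusted p = 0.0676). Of the 6 refits that left out 1 library of the comparison, it passed in 1. Over all planned settings the adjusted p at 24 h ran from 0.0145 to 0.323. At 0 h the log2 difference was 0.45 without WT replicate 2, 0.55 without WT replicate 3 and 0.41 without KO replicate 1, and Pde2a did not pass in these 3 refits. The summed CD8 T cell markers (in effect Cd8b1) and NK cell markers, given above, were also higher in every resting KO library than in every resting WT library, and at 24 h the CD8 sums overlapped, at 8.79 to 14.7 CPM in KO and 8.09 to 11.0 CPM in WT; their part in the Pde2a difference, and that of Pecam1 at 24 h, was not tested. In bulk RNA, fewer or more cells of a type and less or more RNA per cell cannot be told apart. Pde2a lies on chromosome 7, as do Pde3b and Sirt2. Of its 6.149 kb of exon, 3955 bases overlap the predicted gene Gm45837 on the same strand, which is not a row of the count tables. The part of Gm45837 in the Pde2a counts was not tested.

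**Figure D2:**
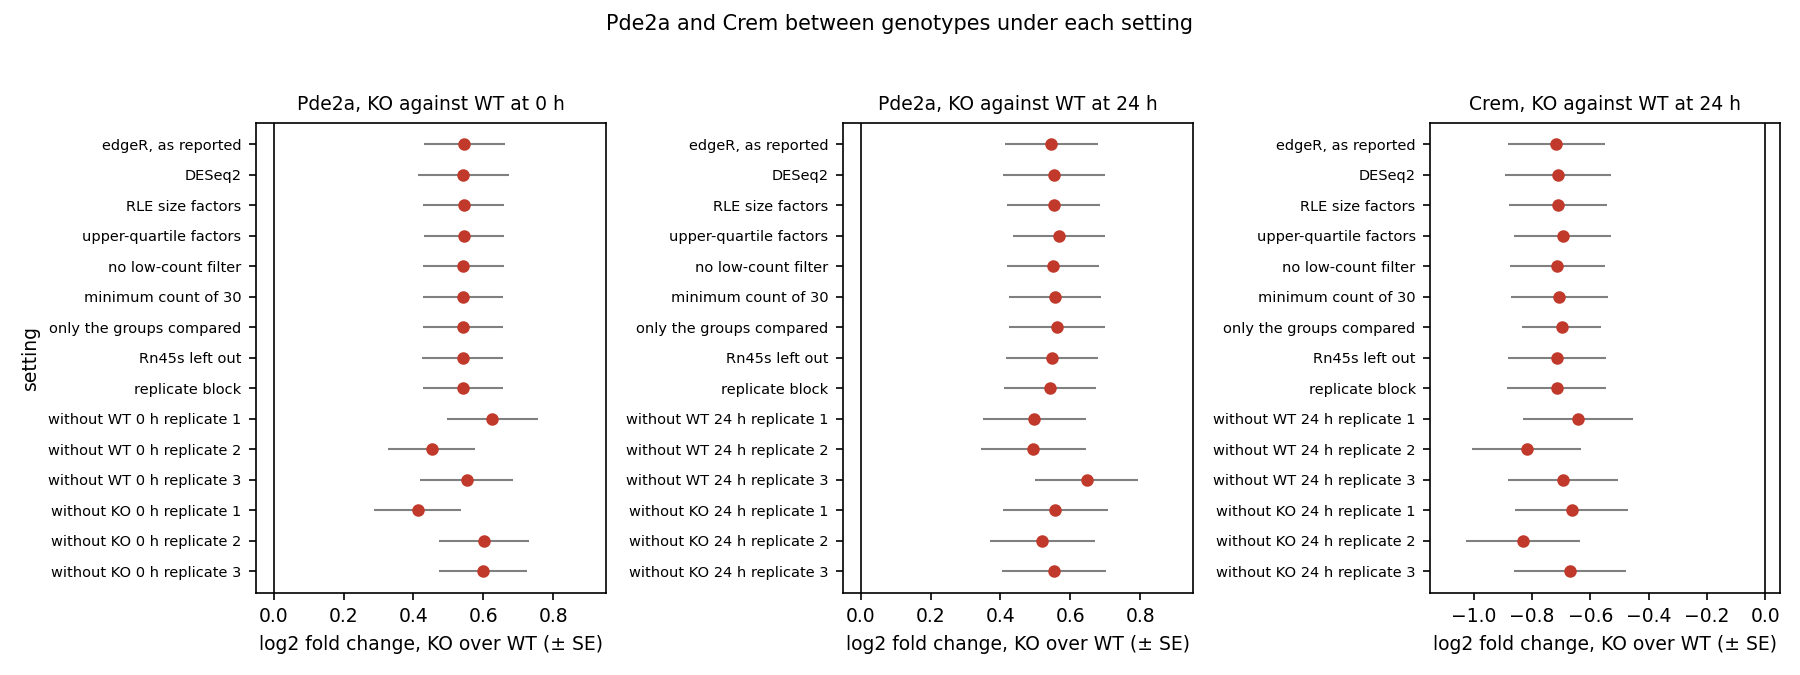
Log2 fold change of KO over WT (x axis, ± SE of the fit) for Pde2a at 0 h and 24 h and for Crem at 24 h under each setting (y axis). Pde2a stays between 0.41 and 0.65 and Crem between -0.83 and -0.64.

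Pde3b, a phosphodiesterase that cyclic GMP inhibits, rose slightly. It was at 173, 187 and 180.5 CPM in resting WT and 158, 171 and 180.0 CPM in resting KO, and at 214, 225 and 196 CPM in stimulated WT and 209.6, 207 and 204 CPM in stimulated KO. All 24 h libraries lay above all 0 h libraries, with genotypes overlapping. Pde3b rose in KO (log2 0.29, SE 0.0865, edgeR quasi-likelihood, adjusted p = 0.00608) and in WT (log2 0.23, SE 0.0854, edgeR quasi-likelihood, adjusted p = 0.026). The WT call was lost with upper-quartile factors (log2 0.17, edgeR quasi-likelihood, adjusted p = 0.112) and without resting WT replicate 1, stimulated WT replicate 1 or stimulated WT replicate 2, with log2 values of 0.22, 0.23 and 0.18. KO against WT was log2 -0.09 at 0 h (95% interval -0.26 to 0.08, edgeR quasi-likelihood, adjusted p = 0.868) and -0.03 at 24 h (-0.21 to 0.14, edgeR quasi-likelihood, adjusted p = 0.982).

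The 3 genes of the PDE4 family, which encode phosphodiesterases specific for cyclic AMP, differed in level and direction. Pde4b was at 163, 165 and 157 CPM in resting WT, 176, 179 and 152 CPM in resting KO, 135, 128 and 129 CPM in stimulated WT, and 132, 131 and 136 CPM in stimulated KO. The 24 h libraries lay below the 0 h libraries, without overlap. Pde4b fell in WT (log2 -0.31, SE 0.0881, edgeR quasi-likelihood, adjusted p = 0.00409) and in KO (log2 -0.35, SE 0.0890, edgeR quasi-likelihood, adjusted p = 0.00153). Its KO against WT difference was log2 0.07 at 0 h (95% interval -0.11 to 0.24, edgeR quasi-likelihood, adjusted p = 0.912) and 0.03 at 24 h (-0.15 to 0.21, edgeR quasi-likelihood, adjusted p = 0.985).

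Pde4d was at 134, 129 and 136 CPM in resting WT and 126, 136 and 131 CPM in resting KO. At 24 h it spread more widely, with 179, 153 and 136 CPM in WT and 148, 177 and 132 CPM in KO. In WT the 24 h libraries lay above those of 0 h by a narrow margin, and in KO they overlapped. The change did not pass in WT (log2 0.23, SE 0.0994, edgeR quasi-likelihood, adjusted p = 0.0655) or in KO (log2 0.23, SE 0.101, edgeR quasi-likelihood, adjusted p = 0.07). It passed in both genotypes with no filter on low counts (edgeR quasi-likelihood, adjusted p = 0.0337 and 0.0334), in KO with a minimum count of 30 (edgeR quasi-likelihood, adjusted p = 0.0428), without stimulated WT replicate 3 in WT (log2 0.31) and without stimulated KO replicate 3 in KO (log2 0.32). Between genotypes it was log2 -0.03 at both times (95% intervals -0.23 to 0.17 at 0 h and -0.23 to 0.17 at 24 h, edgeR quasi-likelihood, adjusted p = 0.977 and 0.988).

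Pde4a was near the limit of detection. It was at 0.520, 1.52 and 0.876 CPM in resting WT, 0.644, 2.26 and 1.69 CPM in resting KO, 1.41, 0.804 and 2.65 CPM in stimulated WT, and 2.93, 1.75 and 2.49 CPM in stimulated KO. These levels rest on 21, 29, 33 and 36 reads per group, and all groups overlapped in at least part of their range apart from resting WT and stimulated KO. No difference was detectable at this depth: the log2 change was 0.69 in WT (95% interval -0.64 to 2.02) and 0.68 in KO (-0.59 to 1.96), and KO against WT was 0.57 at 0 h (-0.79 to 1.92) and 0.56 at 24 h (-0.70 to 1.81), with adjusted p of 0.429, 0.415, 0.901 and 0.937 (edgeR quasi-likelihood).

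Pde7a, which encodes another phosphodiesterase specific for cyclic AMP, was at 43.1, 48.9 and 37.4 CPM in resting WT and 47.3, 44.1 and 54.0 CPM in resting KO. At 24 h it was at 30.1, 26.8 and 27.3 CPM in WT and 23.2, 27.6 and 24.6 CPM in KO. All 24 h libraries lay below all 0 h libraries, and the genotypes overlapped. It fell in WT (log2 -0.62, SE 0.141, edgeR quasi-likelihood, adjusted p = 0.000331) and in KO (log2 -0.94, SE 0.146, edgeR quasi-likelihood, adjusted p = 7.6e-07), and the interaction of -0.32 (SE 0.203) did not pass (edgeR quasi-likelihood, adjusted p = 0.996). KO against WT was log2 0.17 at 0 h (95% interval -0.11 to 0.44, edgeR quasi-likelihood, adjusted p = 0.833) and -0.15 at 24 h (-0.45 to 0.15, edgeR quasi-likelihood, adjusted p = 0.920).

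**Figure D3:**
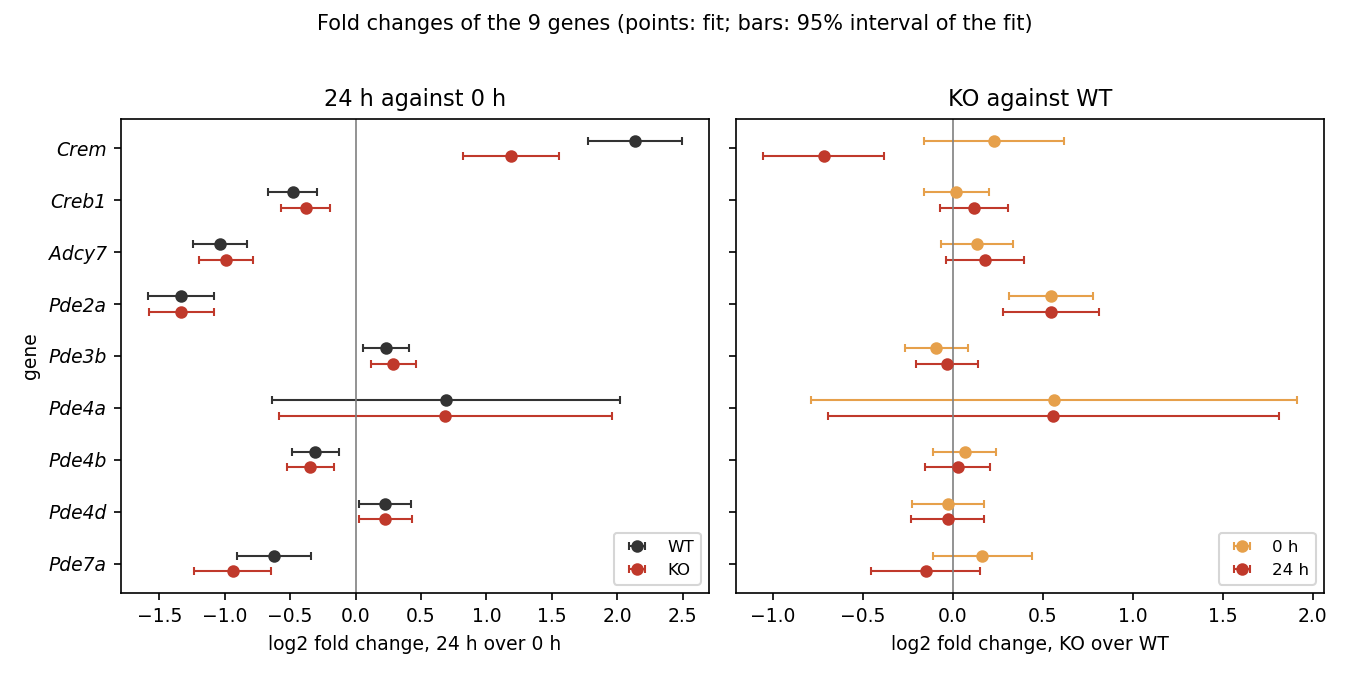
Log2 fold changes (x axis) of the 9 genes (y axis) over time in WT and KO and between KO and WT at 0 h and 24 h; points are fitted values and bars 95% intervals. Crem is at 2.13 in WT and 1.19 in KO over time, a difference that did not pass as an interaction; Pde2a is at 0.55 at both times, which missed the threshold at 24 h; and the intervals of Pde4a are the widest.

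Per kilobase of annotated exon, the 6 phosphodiesterases summed to 62.6 to 64.3 CPM per kb in resting WT, 67.8 to 70.3 in resting KO, 54.1 to 59.4 in stimulated WT and 56.5 to 60.6 in stimulated KO. The mean sum at 0 h was 63.5 in WT and 68.9 in KO, and Pde2a alone was at 11.6 and 16.9. Most of the higher sum in resting KO is thus the Pde2a difference known when the genes were chosen, and not a separate result. In the level per kb, Pde3b had the largest mean share in each group, from 27.0% ± 2.27 in resting KO to 40.7% ± 1.99 in stimulated WT (SD, n = 3), and in resting KO its range, 24.6% to 29.1%, crossed that of Pde2a, 22.7% to 27.9%. The share of Pde2a was 18.3% ± 2.15 in resting WT, 24.5% ± 2.94 in resting KO, 8.11% ± 1.34 in stimulated WT and 11.5% ± 0.186 in stimulated KO (SD, n = 3). In resting WT the order of mean levels per kb was Pde3b (19.8), Pde4b (15.3), Pde2a (11.6), Pde4d (11.1), Pde7a (5.57) and Pde4a (0.127), and the levels of Pde2a and Pde4d were within their spread. In stimulated WT it was Pde3b (23.2), Pde4d (13.0), Pde4b (12.4), Pde2a (4.60), Pde7a (3.62) and Pde4a (0.212 CPM per kb), with Pde4d and Pde4b within their spread. The sums rest on the annotated exon length of all isoforms, not on the isoforms these cells use.

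Over the 9 genes, 7 passed the test of 24 h against 0 h in WT, 2 higher and 5 lower, where 40.7% of all 10981 tested genes passed, 20.2% higher and 20.5% lower. In KO it was also 7, 2 higher and 5 lower, against 40.4% of all genes, 19.4% higher and 21% lower. The median log2 change was -0.31 in WT and -0.35 in KO, beside 0.0027 and -0.0028 over all genes. Between genotypes 1 of the 9 passed at 0 h (0.346% of all genes did) and 1 at 24 h (0.273%), and since these are Pde2a and Crem, known when the list was made, nothing is read from those counts. Libraries of the genotypes did not overlap for 1 of the 9 at 0 h, against 12.4% of all genes, and for 2 of the 9 at 24 h, against 12.9%. At 0 h it was Pde2a, higher in KO, as were 6.04% of all genes, and at 24 h Pde2a was again higher (5.74% of all genes) and Crem lower (7.19%). Between the times 8 of the 9 did not overlap in WT (49.3% of all genes), 3 of them higher (24.6%) and 5 lower (24.8%), and 7 of the 9 in KO (49.4%), 2 higher (23.9%) and 5 lower (25.5%). In the interaction 0 of the 9 passed with edgeR or DESeq2, and 0.00911% of all genes passed with edgeR. At an unadjusted p below 0.05 it was 1 of the 9 with each tool, beside 575 of all 10981 genes with edgeR and 548 with DESeq2. The comparisons over time and between genotypes share libraries.

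The wider pathway was described with 9 lists, holding 90 genes, of which 58 were tested. On stimulation 12 of the 58 rose and 21 fell in WT, and 12 rose and 20 fell in KO, with median log2 changes of -0.23 and -0.22. Over all genes 20.2% rose and 20.5% fell in WT and 19.4% and 21% in KO, so the share that rose was near that of all genes; the counts of the lists below are small and are to be read beside the same shares. Between genotypes 1 of the 58 passed at 0 h (0.346% of all genes did), the CREB target and nuclear receptor gene Nr4a2, which was at 18.1 ± 4.53 CPM in KO and 26.7 ± 0.878 CPM in WT (SD, n = 3, log2 -0.59, SE 0.143, edgeR quasi-likelihood, adjusted p = 0.0447), and DESeq2 called 2. Its relatives Nr4a1 and Nr4a3 did not pass (log2 -0.34 and -0.51, edgeR quasi-likelihood, adjusted p = 0.132 and 0.0836). The lists were made with results of these data known, so the Nr4a2 call, close to the threshold, is a description. At an unadjusted p below 0.05 there were 9 of the 58 with edgeR and 10 with DESeq2 at 0 h, beside 878 and 837 of all 10981 genes. At 24 h 0 of the 58 passed with edgeR and 0 with DESeq2, with 10 and 6 at an unadjusted p below 0.05, beside 775 and 724 of all genes. In the interaction 0 passed with edgeR and 0 with DESeq2, with 5 and 4 at an unadjusted p below 0.05, beside 575 and 548 of all genes.

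Among receptors that raise cyclic AMP, 2 of 9 tested rose and 4 fell in WT, where 20.2% of all genes rose and 20.5% fell. Ptger2, a receptor for prostaglandin E2, rose (log2 0.95, SE 0.270, edgeR quasi-likelihood, adjusted p = 0.00385), while the prostacyclin receptor gene Ptgir fell (log2 -0.97, edgeR quasi-likelihood, adjusted p = 0.0319). In KO 2 rose and 5 fell. Of 4 tested G protein subunits that act on the cyclases, Gnai2, an inhibitory subunit, fell from 1619 ± 127 to 710.0 ± 59.6 CPM in WT (SD, n = 3, log2 -1.19, edgeR quasi-likelihood, adjusted p = 3.4e-14). The stimulatory subunit gene Gnas fell (log2 -0.31, edgeR quasi-likelihood, adjusted p = 0.0113) and Gnai3 rose (log2 0.33, edgeR quasi-likelihood, adjusted p = 0.00788). In KO Gnai2 and Gnas fell and none rose. Of 3 other adenylyl cyclases tested, Adcy3 fell in WT (log2 -1.05, SE 0.198, edgeR quasi-likelihood, adjusted p = 2.42e-05) and in KO (log2 -1.31).

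Of 5 tested subunits and inhibitors of protein kinase A, both catalytic subunit genes fell in WT, Prkacb by log2 -0.88 (SE 0.0913, edgeR quasi-likelihood, adjusted p = 4.11e-11) and Prkaca by log2 -0.53 (SE 0.122, edgeR quasi-likelihood, adjusted p = 0.000395). The regulatory subunit gene Prkar1a rose in WT (log2 0.34, edgeR quasi-likelihood, adjusted p = 0.00135). In KO the same 2 catalytic genes fell and Prkar1a did not pass (log2 -0.01). Of 11 tested A-kinase anchoring proteins, Akap1 rose in WT (log2 1.90, edgeR quasi-likelihood, adjusted p = 0.00335) and Akap2 and Akap11 fell (log2 -0.66 and -0.37), and in KO 2 rose and 2 fell. The exchange factor gene Rapgef4 and the efflux pump gene Abcc4, the 2 tested of 3 in their list, fell in WT (log2 -0.67 and -0.56, edgeR quasi-likelihood, adjusted p = 0.00138 and 0.00234) and did not pass in KO (log2 -0.33 and -0.15); this difference did not pass as an interaction (edgeR quasi-likelihood, adjusted p = 0.996 and 0.952).

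Of 9 tested CREB relatives, coactivators and kinases acting on them, 2 rose and 3 fell in both genotypes. Sik1, a kinase that restrains CREB coactivators, fell from 243 ± 9.55 to 97.8 ± 6.37 CPM in WT (SD, n = 3, log2 -1.31, edgeR quasi-likelihood, adjusted p = 3.84e-16), its relative Sik3 rose (log2 1.20) and the coactivator gene Crtc3 fell (log2 -0.41). All 10 known CREB target genes tested passed in both genotypes, 4 higher and 6 lower, Sik1 among them, where 40.7% of all genes passed in WT and 40.4% in KO; many of them are also known as immediate-early genes. Fos fell from 329.9 ± 23.2 to 8.51 ± 1.37 CPM in WT (SD, n = 3, log2 -5.26), Fosb by log2 -5.20 and Dusp1 by log2 -3.71, while Nr4a2 rose to 150.1 ± 17.6 CPM (log2 2.49). The 0 h cells, though called resting, were thus high in Fos RNA. In WT at 0 h Fosb was at 205 ± 18.3 CPM and Dusp1 at 978 ± 73.2 CPM (SD, n = 3). The cause of these high 0 h levels was not tested. Among 6 other tested phosphodiesterases Pde7b rose in WT from 0.183 ± 0.188 CPM, 4 reads in all, to 4.57 ± 0.979 CPM, 96 reads (SD, n = 3, edgeR quasi-likelihood, adjusted p = 2.56e-05). In KO Pde7b rose from 0.439 ± 0.761 CPM, 7 reads, to 1.81 ± 1.09 CPM, 29 reads (SD, n = 3, edgeR quasi-likelihood, adjusted p = 0.0267), and Pde8a, named here because the count is small, rose by log2 0.97. All 7 Pde7b reads of resting KO were in replicate 3, and stimulated KO had 16, 10 and 3 reads per library.

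**Figure D4:**
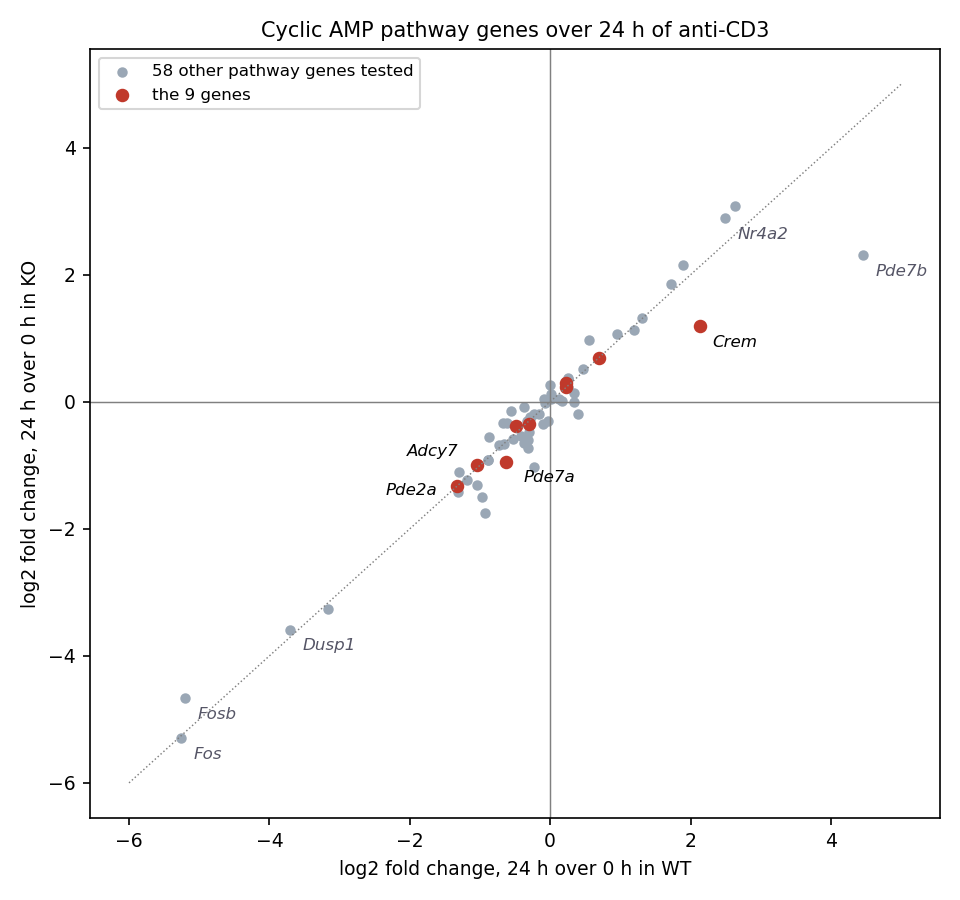
Log2 fold change of 24 h over 0 h in WT (x axis) and in KO (y axis) for the 9 genes and the 58 other tested genes of the pathway lists; the dotted line marks equal change. Most genes lie near the line, and Crem, at 2.13 in WT and 1.19 in KO, lies below it, as does Pde7b, whose resting levels rest on 4 and 7 reads. The 7 reads of Pde7b in resting KO were all in replicate 3.

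Likeness of pattern was measured as Pearson's r of log2 CPM over the 12 libraries, which all share the step from 0 h to 24 h, so that high values are common. The genes most like Crem were Ssb (0.983), Chst2 (0.976) and Fcf1 (0.976), and those most like Creb1 were Arhgap9 (0.990), Flt3l (0.987) and Sfmbt2 (0.985). For Adcy7 they were Pglyrp2 (0.994), Atp2b4 (0.994) and Crip1 (0.989), and for Pde2a Rinl (0.976), Ifi203 (0.975) and Igsf23 (0.973). For Pde3b they were Apc (0.962), Atg16l1 (0.955) and Kdm5b (0.954), for Pde4b Zfand3 (0.972), Zmynd11 (0.971) and Dzip1 (0.965), and for Pde7a Chn2 (0.979), Rin2 (0.977) and Mir1938 (0.971). Rin2 and Mir1938 were low, with group means of 0.698 to 4.43 and 0.0582 to 2.41 CPM, so their r rests on few reads. Pde4d (Cnot4, 0.866) and Pde4a (Stat4, 0.891) had less similar neighbours. Within the set, Creb1 and Adcy7 were the most alike (r = 0.972) and Crem and Creb1 the most opposed (r = -0.945).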

How the data were processed

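Libraries were grouped by sample title into 4 groups of 3, 12 in all. The deposited values were read counts per gene symbol, 1 table per library, and the submitters' processing notes name STAR 2.6.0c, DESeq and the human build hg19; gene symbols are mouse ones, which leaves the build of the counts uncertain. Counting program, annotation and strandedness: not given in the sources used here. The 5 closing entries that name no gene were left out; reads without a feature were 22.8% to 35.4% of those listed and reads aligned to several places 25.7% to 30.9%. Genes were kept by filterByExpr (minimum count 10, minimum total 15), which left 10981. All 4 groups entered 1 model with no covariate, fitted by the quasi-likelihood method of edgeR 4.0.16 (R 4.3.3) with TMM factors and robust settings, with p-values adjusted by Benjamini-Hochberg over all tested genes, with a threshold of 0.05. It was also run on simulated counts with changes set in some genes of stimulated KO alone. In these data many genes changed over time in both genotypes, so nothing is read from that run. SEs are the fold change divided by the root of its F statistic.

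The 9 genes and the lists were chosen with earlier results of these data known. The naming rule took all 9 genes, Sirt2 and, of each pathway list, genes past the threshold between genotypes and up to 3 with the largest change over time in WT; 1 gene that it takes is not reported here. For likeness it took the 3 genes with the highest r for each of the 9, predicted genes left out, and for Crem and Pde2a also 5 after the mean of each time point was taken off. Of the neighbours of Pde4a and Pde4d the report names the first only. Exon lengths and overlaps came from GENCODE M21, chromosomes and promoters from RefSeq GRCm38. Alternatives were DESeq2 1.42.0, RLE and upper-quartile factors, no filter, a minimum count of 30, only the groups compared, the ribosomal precursor Rn45s left out, the replicate number as a block, and leaving out each library.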

Additional observations from a re-analysis of the deposited data

How the results depend on the processing

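Of 670 refitted values of the 9 genes, 608 kept their direction and side of the threshold, 14 lost and 11 gained a call, and 37 changed sign, each of the last from a main value that had not passed. At 24 h, KO against WT called 2 of the 9 genes with DESeq2, RLE factors, upper-quartile factors, no filter and a minimum count of 30, as Pde2a joined Crem. Both genes were chosen with results of these libraries known, so neither call there is separate support. These settings called 31 to 45 genes in all, and with the minimum of 30 Pde4a was not tested. With the replicate block it called 0 (Crem log2 -0.72). Titles share replicate numbers, and r of same-numbered libraries between genotypes or times was small, at -0.0884 to 0.0934. Over time in WT it was 0.0139, 0.0763 and 0.0934, each above the largest r with another number (0.00371, 0.0158 and -0.0326). In KO over time this held for replicates 1 and 3 but not for replicate 2. Whether libraries are paired over time was therefore not settled. The block says little about pairing, and it changed no other call on the 9 genes. Leaving out 1 library gave 0 to 1 of the 9 genes at 0 h and 0 to 1 at 24 h between genotypes, 6 to 8 in WT and 7 to 8 in KO over time, and 0 in the interaction. The cause was not tested, beyond the fewer libraries of each refit. Over all genes, KO against WT called 38 at 0 h, 59 with no filter and 24 with only the groups compared, and 17 to 33 without 1 library; at 24 h it called 30, 45 with DESeq2 and 14 to 30 without 1 library. The interaction called 1 gene, 3 with no filter and 0 with RLE or upper-quartile factors, a minimum count of 30, Rn45s left out or the block.

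The sign changes were in values near 0. The Pde4d interaction (-0.00047) was 0.0056 with DESeq2, 0.0069 with RLE factors, 0.019 with upper-quartile factors, 0.0040 with no filter, 0.013 with a minimum count of 30 and 0.0049 with Rn45s left out. The Pde4a interaction (-0.0061) was 0.0019 with RLE factors, 0.022 with upper-quartile factors and 0.067 with the block, and the Pde2a interaction was -0.00019 with the block. Without 1 library the interaction ran from -0.13 to 0.10 for Pde4d, -0.44 to 0.58 for Pde4a, -0.071 to 0.14 for Pde2a, -0.097 to 0.012 for Pde4b and -0.019 to 0.12 for Adcy7, and KO against WT from -0.0026 to 0.037 for Creb1 at 0 h, -0.087 to 0.015 for Pde3b at 24 h and -0.15 to 0.074 for Pde4d at 24 h. Depth limits Pde4a most, with 3 to 19 reads per library.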

Other observations

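With the mean of each time point taken off, so that the step from 0 h to 24 h no longer counts, the genes most like Pde2a over the 12 libraries were Ly6c1 (r = 0.951), Fbxo17 (0.916), Igsf23 (0.907), Ly6a (0.905) and Rinl (0.900). This measure keeps the difference between genotypes, which was known for Pde2a and Crem when they were chosen. It therefore ranks high the genes that differ by genotype in the same direction, and is no separate support. Fbxo17, Igsf23 and Rinl lie on chromosome 7, as do Pde2a and Sirt2, and Ly6c1 and Ly6a lie on chromosome 15 (RefSeq GRCm38). Whether a place on chromosome 7 has a part in these differences was not tested. Igsf23 was at 40.8 ± 1.73 CPM in resting WT and 55.9 ± 6.78 CPM in resting KO, and at 15.8 ± 4.81 CPM in stimulated WT and 26.8 ± 1.19 CPM in stimulated KO (SD, n = 3). The genes most like Crem by the same measure were Ssb (0.949), Gaa (0.927), Hmgn1 (0.924), Tmem216 (0.920) and Mta1 (0.913), on chromosomes 2, 11, 16, 19 and 12. Tmem216 was low, with group means of 0.610 to 2.10 CPM, so its r rests on few reads. Ssb, which encodes the RNA-binding La protein, was at 188.7 ± 10.2 CPM in stimulated WT and 163 ± 12.9 CPM in stimulated KO (SD, n = 3). These values describe the same 12 libraries and carry no test.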
